A study of Mus musculus with 2 samples.

Results

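The genes described here are 10 neuronal RNA-binding protein genes, chosen by name: Elavl2, Elavl3, Elavl4, Rbfox1, Rbfox2, Rbfox3, Celf2, Celf4, Nova1 and Nova2. They are 10 of the 32285 features of the gene tables, and all 10 were measured in both libraries. The rule names the genes and sets no threshold on a measured value. The libraries came from the spinal cord of the transgenic line iNeuroD1GFP, whose NeuroD1, a proneural transcription factor, is switched on by tamoxifen. The cords were injured at postnatal day 60 (the sample labels give an age of 8 weeks, and the animals as male), tamoxifen was given at 100 mg/kg/day on days 5 to 8 after injury, and tissue was taken on day 10 from 3 mice. The injury core gave 1 library of nuclei and the distal region gave 1, and every mouse had the same transgene, injury and tamoxifen, so there was no uninjured or uninduced sample. The extraction protocol calls the second region peri-injury, and the sources used here do not give the cell type that drives the transgene or say whether the mice were pooled. Nuclei were isolated from frozen tissue and sequenced with 10x Genomics 3′ chemistry, which counts unique molecular identifiers (UMIs), each standing for 1 captured transcript.

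Splicing, stability and translation of neuronal transcripts are set in part by RNA-binding proteins that neurons hold at high levels. The neuronal Elavl (Hu) proteins bind AU-rich and U-rich stretches in transcripts and are known for stabilising them, Rbfox proteins bind UGCAUG and switch exons in or out, Celf proteins bind GU-rich elements, and Nova proteins bind YCAY clusters (Y being a pyrimidine) and regulate exons of synaptic transcripts. Elavl2, Elavl3 and Elavl4 encode HuB, HuC and HuD, and Rbfox3 encodes NeuN, the protein most used as a stain for mature neurons. Several of them are used as markers when neurons are identified in tissue.

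Nuclei were put into classes by clustering, without any gene of the 4 families, and by marker lists that hold none of them. A class name below means nuclei with that marker profile (oligodendrocyte-like and so on), apart from neurons. Clusters were called neuron-like when they scored low for every other class, varied more than the background-like nuclei below and had at least 3 neuron markers. A high level of neuron markers was not required. The core library had 16362 barcodes, 30469263 UMIs and a median of 1303 UMIs per barcode, against 7452 barcodes, 19049572 UMIs and a median of 1743 in the distal library, and 38 barcode sequences occurred in both. Neuron-like nuclei numbered 9542 in the core library and 1625 in the distal library. A further 5436 core nuclei, 33.2% of that library, were called background-like because they varied little more than random draws from 1 shared profile, and 4841 of the core neurons, in clusters 1 and 2, were only slightly more varied and had no leading neuron-subtype marker. Levels are given as CPM, the UMIs of a gene per 1000000 UMIs of its class. With 1 library per region there was no test, no standard deviation and no replicate check of any difference. The 95% intervals in brackets cover counting error only, and a gene was called higher or lower past 1.5-fold, with at least 10 CPM on one side and at least 50 UMIs over both.

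On GRCm38 the 10 genes differed widely in length, from Elavl3, on the minus strand at chr9:22015005-22052023 (37.0 kb), to Rbfox1, on the plus strand at chr16:5885355-7411526 (1526.2 kb, the span of GENCODE M21). Between these lay Nova2 at chr7:18925888-18965319, Nova1 at chr12:46694517-46818929, Elavl4 at chr4:110203722-110351909, Elavl2 at chr4:91250763-91400785, Rbfox2 at chr15:77078990-77307004, Rbfox3 at chr11:118489762-118911597 and Celf2 at chr2:6539694-7509563. Nuclear RNA is rich in unspliced transcripts, so a long gene can collect more UMIs, and levels of different genes are compared only per length of the gene. Per 100 kb of span, Elavl3 had the highest level of the 10 in neurons, with 1158.9 CPM in the core and 855 CPM in the distal region. Rbfox1 followed with 569 and 521 CPM. The division assumes that UMIs rise in step with span, which was not tested. It lifts short genes, and Elavl3 is the shortest of the 10. The lowest per 100 kb were Celf2 in core neurons (104.5 CPM, although its plain level was 1013.6 CPM) and Elavl4 in distal neurons (68.7 CPM).

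Elavl3 stood apart from Elavl2 and Elavl4 in the class levels below, so the 250 bases upstream of their first transcript start are shown (RefSeq, GRCm38.p6, read 5′ to 3′ on the minus strand, which carries all 3 genes). Capitals mark CANNTG, the E-box that NeuroD-type basic helix-loop-helix factors bind, searched on both strands, which read the same because the motif is its own reverse complement. The windows are chr4:91399985-91400234 for Elavl2, chr9:22052024-22052273 for Elavl3 and chr4:110351912-110352161 for Elavl4. The Elavl2 window lies within the span that GENCODE gives the gene.
Elavl2: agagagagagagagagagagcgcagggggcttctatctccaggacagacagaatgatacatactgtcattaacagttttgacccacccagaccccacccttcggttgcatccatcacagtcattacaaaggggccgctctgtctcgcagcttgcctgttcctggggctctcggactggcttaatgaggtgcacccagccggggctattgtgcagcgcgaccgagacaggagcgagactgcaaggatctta
Elavl3: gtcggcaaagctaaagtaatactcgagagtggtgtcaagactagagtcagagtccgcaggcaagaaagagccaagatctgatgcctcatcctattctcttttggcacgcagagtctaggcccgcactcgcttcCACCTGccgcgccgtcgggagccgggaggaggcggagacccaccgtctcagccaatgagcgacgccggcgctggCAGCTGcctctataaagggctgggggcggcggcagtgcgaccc
Elavl4: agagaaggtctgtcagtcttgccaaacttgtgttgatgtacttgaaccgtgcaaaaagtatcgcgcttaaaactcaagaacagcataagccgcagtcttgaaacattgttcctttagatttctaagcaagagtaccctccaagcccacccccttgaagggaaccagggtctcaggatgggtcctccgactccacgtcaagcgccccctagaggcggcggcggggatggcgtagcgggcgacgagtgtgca
The Elavl3 window held 2 E-boxes, CACCTG and CAGCTG, and the Elavl2 and Elavl4 windows held 0. Of 32841 such windows over all genes 66.2% held at least 1 CANNTG and 13.0% held CAGCTG, so such a match is common. CAGATG, an E-box well known as a NeuroD target, was in 14.4% of all windows and in 0 of the 8 windows that matched one of the 10 genes.

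In the distal library, which held many nuclei of both kinds, 8 of the 10 genes were higher in neurons than in oligodendrocytes, 1 was lower and 1 was neither. Over all 10257 features tested in this comparison, 27.5% were called higher and 27% lower. The median log2 ratio of the 10 genes was 1.90, against -0.11 for all features tested. How far free RNA set the level in oligodendrocytes was not tested. Median depth was 2080 UMIs in neurons and 1744 UMIs in oligodendrocytes.

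Rbfox3 (NeuN) had the largest ratio of the 10. It stood at 507 CPM in distal neurons and 46.7 CPM in distal oligodendrocytes, a ratio of 10.9 (9.30 to 12.7), and 59.0% of neurons and 7.83% of oligodendrocytes had at least 1 of its UMIs. Rbfox1, a splicing regulator of neurons and muscle, stood at 7946.5 CPM in neurons and 1020.7 CPM in oligodendrocytes, a ratio of 7.79 (7.53 to 8.05). Detection was of little use for this long gene, since 99.2% of neurons and 78.7% of oligodendrocytes had an Rbfox1 UMI. Rbfox2, the family member known to be expressed in many tissues, stood at 400.3 CPM in neurons and 205 CPM in oligodendrocytes (ratio 1.95, 1.79 to 2.12). It was higher still outside the neurons, at 598 CPM in endothelial nuclei and 596 CPM in fibroblasts.

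The Elavl genes split. Elavl2 stood at 207 CPM in distal neurons and 58.4 CPM in oligodendrocytes, a ratio of 3.55 (3.06 to 4.13), and Elavl4 at 101.8 and 37.2 CPM, a ratio of 2.74 (2.26 to 3.34). Elavl3 ran the other way, with 317 CPM in neurons and 513 CPM in oligodendrocytes, a ratio of 0.618 (0.576 to 0.662), although HuC is commonly used as a neuron marker. After every nucleus was thinned to 1000 UMIs, Elavl3 was found in 25.9% of neurons and 38.3% of oligodendrocytes. The call rests on which nuclei count as oligodendrocytes: it ended under 3 of the alternative groupings, where log2 ratios were -0.49, -0.46 and -0.33, so the sign held and the 1.5-fold size did not.

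UMIs were also set against those of Rbfox1 in the same nuclei. Rbfox1 was itself higher in neurons than in oligodendrocytes, with a ratio of 7.79 in the distal region and 1.76 in the core. A gene with a smaller ratio than Rbfox1 must therefore come out higher in oligodendrocytes on this scale. Per 1000 Rbfox1 UMIs, Elavl3 had 39.8 UMIs in distal neurons and 502 in distal oligodendrocytes. In the core it had 49.4 in neurons and 116 in oligodendrocytes. Elavl2 had 26.1 in distal neurons and 57.2 in distal oligodendrocytes, and 38.9 in core neurons and 41.6 in core oligodendrocytes. Elavl4 had 12.8 in distal neurons and 36.4 in distal oligodendrocytes, and 22.3 in core neurons and 23.7 in core oligodendrocytes. In distal neurons and oligodendrocytes Celf4 had 95.7 and 98.0, Nova2 12.4 and 12.5, and Rbfox3 63.8 and 45.8. Rbfox2, Celf2 and Nova1 were higher in distal oligodendrocytes on this scale.

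Celf4, a Celf protein found mainly in the nervous system (minus strand, chr18:25477632-25754157), stood at 760.5 CPM in distal neurons and 100.1 CPM in oligodendrocytes (ratio 7.60, 6.83 to 8.48). Celf2, which has roles in immune and heart cells too, stood at 1562 CPM in neurons and 397 CPM in oligodendrocytes (ratio 3.93, 3.72 to 4.16), but fibroblasts held the highest level, 2138 CPM (2004 to 2278), with a Celf2 UMI in 76.1% of 394 nuclei at a median of 980.5 UMIs. A Celf2 UMI was found in 88.4% of distal neurons and 48.0% of distal oligodendrocytes. In the core, Celf2 stood at 1014 CPM in neurons and 1846 CPM in fibroblasts, which led there too. Nova2 stood at 98.8 CPM in distal neurons and 12.7 CPM in oligodendrocytes (ratio 7.76, 5.75 to 10.7), and endothelial nuclei, with 73.9 CPM, did not differ from the neurons beyond the intervals. Nova1 stood at 186 CPM in neurons and 135 CPM in oligodendrocytes (ratio 1.37, 1.23 to 1.54), and was called higher under 4 of 9 alternatives at the same fold limit, with log2 ratios of up to 0.86. Its highest level in the distal library was in oligodendrocyte progenitors, 284 CPM (252 to 319), against which the neurons' ratio was 0.654 (0.570 to 0.752).

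In order of level over 7 distal classes, leaving out the 88 hepatocyte-like nuclei and the 929 nuclei of the blood or mitochondrial cluster (446 CPM of Elavl2), neurons came first for Elavl2, Rbfox1, Rbfox3, Celf4 and Nova2. The neurons' interval was clear of the next class for Rbfox1, Rbfox3 and Celf4 only. It overlapped that of myeloid nuclei (161 CPM) for Elavl2 and of endothelial nuclei for Nova2. For Elavl4 the first 3 classes overlapped in turn, with 127 CPM in myeloid nuclei, 114 CPM in oligodendrocyte progenitors and 101.8 CPM in neurons. Myeloid nuclei had a median of 851.5 UMIs, and they also held 185.9 CPM of Rbfox3 and 3238 CPM of Rbfox1. How far free RNA set those myeloid values was not tested.

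Neurons were also set against 5 other distal classes in turn, and fewest genes were higher against myeloid nuclei. Against endothelial nuclei 8 of the 10 genes were higher and 0 lower (31.8% and 29.5% of features). Against fibroblasts 7 were higher and 0 lower (23.6% and 30.7%), with Celf2 at 0.731 (0.683 to 0.783) and Rbfox2 at 0.671 (0.590 to 0.767). Against astrocytes 7 were higher and 0 lower (19.2% and 26.4%), and Elavl3 (1.19), Rbfox2 (1.28) and Nova1 (0.936) were neither. Against oligodendrocyte progenitors 7 were higher and 1, Nova1, lower (23% and 19.9%), and Elavl3 (0.951, 0.843 to 1.08) and Elavl4 (0.896, 0.727 to 1.11) had intervals that include 1. Against myeloid nuclei 4 were higher and 0 lower (22.3% and 27.7%): Nova2 (3.67), Rbfox3 (2.73), Rbfox1 (2.45) and Celf4 (2.34). Rbfox1, Rbfox3 and Celf4 were higher in neurons in all 6 of these distal comparisons, oligodendrocytes included.

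**Figure D1:**
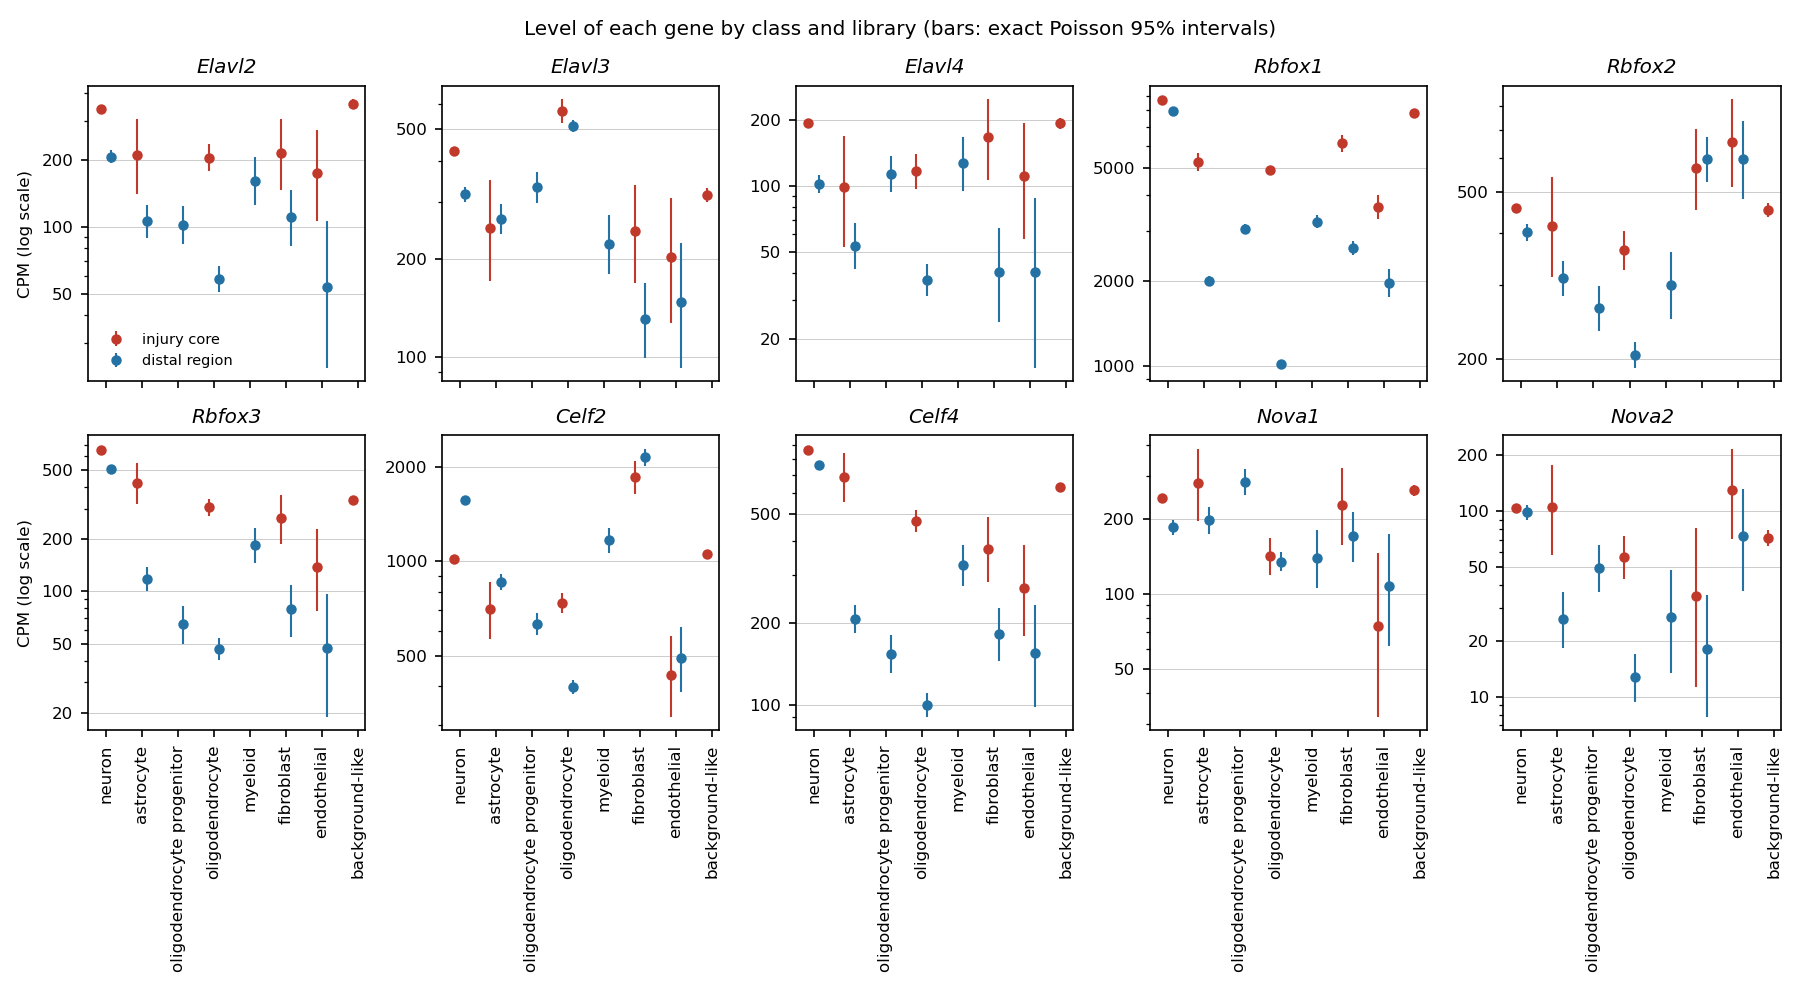
Level of each of the 10 genes by class of nuclei, in CPM on a log axis, 1 panel per gene, with injury core in red, distal region in blue and bars for the 95% Poisson interval (counting error only). Rbfox3 and Celf4 peak in neurons, Elavl3 in oligodendrocytes, Celf2 in fibroblasts, and Rbfox3 lies at 305 CPM in core oligodendrocytes and 46.7 CPM in distal ones.

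In the core library the same genes separated neurons from oligodendrocytes far less. There 7 of 10 were higher in neurons and 0 lower, beside 18.3% higher and 19.4% lower of 9731 features, and the median log2 ratio of the 10 was 0.76. Rbfox3 stood at 653.5 CPM in core neurons and 305 CPM in core oligodendrocytes (ratio 2.14), Rbfox1 at 8687 and 4925 CPM (1.76), Celf4 at 859 and 473 CPM (1.82) and Nova2 at 104.6 and 56.8 CPM (1.84). Elavl2, Elavl4 and Nova1 had ratios of 1.65, 1.66 and 1.72. Rbfox2 (1.26) and Celf2 (1.38) were past neither limit, and Elavl3 was again on the oligodendrocyte side, with 429 CPM in neurons and 569 CPM in oligodendrocytes (0.754).

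Core oligodendrocytes themselves held more of these transcripts than distal ones. Of the 10 genes, 8 were higher and 0 lower in core oligodendrocytes, beside 21.4% higher and 21.6% lower of 9002 features. The ratios reached 6.54 for Rbfox3 (305 against 46.7 CPM), 4.83 for Rbfox1, 4.73 for Celf4, 4.46 for Nova2, 3.51 for Elavl2 and 3.14 for Elavl4, with 1.85 for Celf2 and 1.77 for Rbfox2. Elavl3 (1.11) and Nova1 (1.05) were the exceptions. The summed level of the 12 neuron markers, none of them at 0 in either group, moved the same way, with 4636 CPM in core oligodendrocytes and 1389 CPM in distal ones, and its part in the result was not tested. Of the core oligodendrocytes 531 of 580 fell in one sub-cluster (4.7) and 49 in cluster 3, which held all 1865 distal ones.

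Astrocytes pointed the same way. With only 85 core nuclei against 630 distal ones, 5 of the 9 genes with enough UMIs were higher in core astrocytes and 0 lower, beside 18.9% higher and 29.3% lower of 5345 features. Rbfox3 had a ratio of 3.56, Celf4 3.33, Rbfox1 2.63, Elavl2 1.997 and Elavl4 1.84. The Elavl4 ratio rests on 13 core UMIs, and its interval (0.935 to 3.35) includes 1. Neuron markers summed to 5220 CPM in core astrocytes and 2180 CPM in distal ones.

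Core neurons and background-like core nuclei were nearly alike in these genes. Only Rbfox3 passed 1.5-fold, with 653.5 CPM in neurons and 335 CPM in background-like nuclei, a ratio of 1.95 (1.86 to 2.05), beside 5.93% higher and 3.2% lower of 9212 features. Elavl3 (1.37), Celf4 (1.36) and Nova2 (1.46) were higher by less, and the other 6 genes had ratios of 0.933 to 1.11. The neuron markers summed to 7152 CPM in core neurons and 7153 CPM in background-like nuclei. Median depth was 1783.5 UMIs in core neurons and 928 UMIs in background-like nuclei. Rbfox3 was thus the member that set the 2 groups apart most, and none of the 3 Elavl genes reached the limit.

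**Figure D2:**
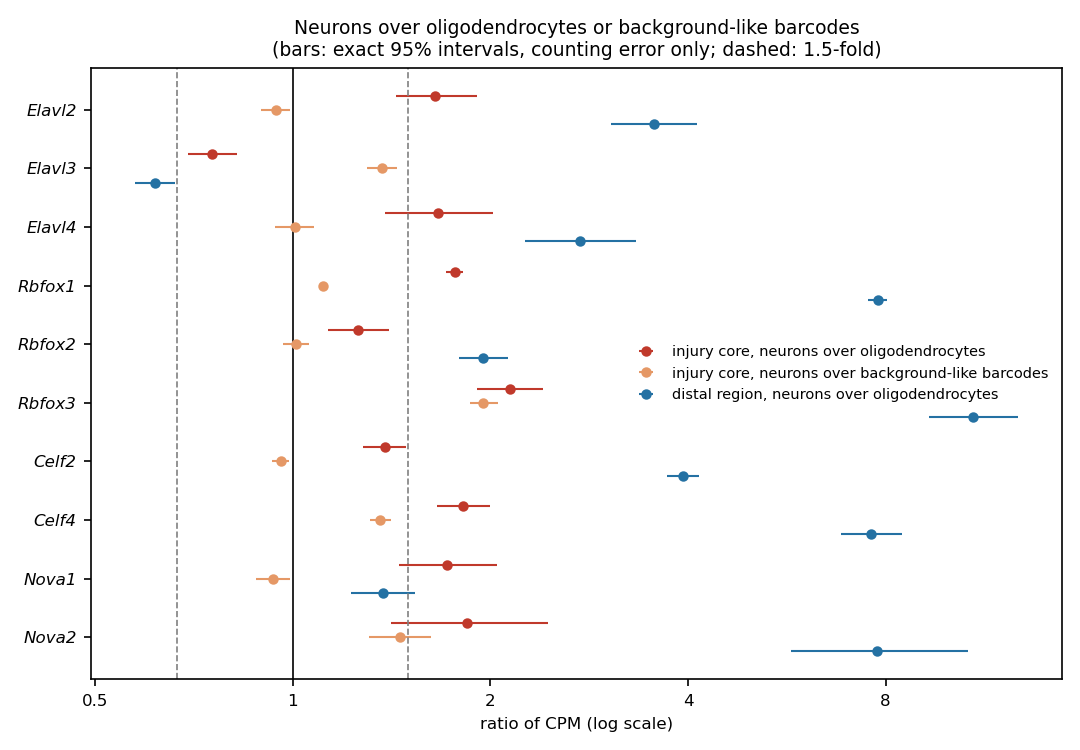
Ratio of the level in neurons to that in another class for each of the 10 genes, on a log axis, for core neurons over core oligodendrocytes, core neurons over core background-like nuclei and distal neurons over distal oligodendrocytes, with 95% intervals for counting error. The distal ratios reach 10.9 for Rbfox3, the core ratios over oligodendrocytes stop at 2.14, and Elavl3 lies below 1 against oligodendrocytes in both libraries.

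Counting how many of the 10 genes a nucleus showed gave the same picture at equal depth. Among nuclei thinned to 1000 UMIs, core neurons showed a mean of 4.04 of the 10 genes, core background-like nuclei 3.77 and core oligodendrocytes 3.18. Distal neurons showed 3.62 and distal oligodendrocytes 1.84. At least 5 of the 10 genes were seen in 35.0% of core neurons, 26.7% of core background-like nuclei and 16.3% of core oligodendrocytes. In the distal library this share was 24.6% of neurons and 0.840% of oligodendrocytes. Shallower nuclei, 5181 of the core and 1507 of the distal library, were not thinned and are not in these shares. They were 3758 of the 5436 background-like nuclei but 1067 of the 9542 core neurons, so the background-like values describe only its deeper nuclei.

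Neurons were next divided by transmitter. A neuron was called excitatory when it had a UMI of a vesicular glutamate transporter gene and none of Slc32a1, Gad1, Gad2 or Slc6a5, and inhibitory in the reverse case, which gave 809 excitatory and 2206 inhibitory nuclei in the core and 207 and 261 in the distal region. Most neurons had no UMI of either set (6315 in the core, 1130 in the distal region), and 212 core and 27 distal neurons had UMIs of both. In background-like core nuclei the excitatory markers summed to 62.7 CPM and the inhibitory markers to 169.9 CPM, so part of the core calls can come from such RNA, which was not tested.

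Elavl2 was the gene of the 10 that differed most by transmitter, and it was lower in excitatory neurons. In the distal region it stood at 178 CPM in excitatory neurons (114 UMIs) and 322 CPM in inhibitory neurons (317 UMIs), a ratio of 0.552 (0.441 to 0.686), and 3.29% of the 5136 features tested had a lower ratio. It was the only 1 of 10 called, as lower, beside 5.94% of features called higher and 8.35% called lower. An Elavl2 UMI was found in 25.1% of excitatory and 45.2% of inhibitory distal neurons, at median depths of 2548 and 2938 UMIs, and in 10.7% of distal oligodendrocytes. After thinning the shares were 12.2% of excitatory and 23.2% of inhibitory neurons. In the core the levels were 288 CPM in excitatory neurons and 400.1 CPM in inhibitory neurons, a ratio of 0.720 (0.656 to 0.788). No gene of the 10 was called there, beside 2.51% higher and 3.03% lower of 9120 features. When clusters 1 and 2 were left out, Elavl2 passed the limit in the core too, with a log2 ratio of -0.72. At clustering resolution 0.5 the distal Elavl2 call ended, with a log2 ratio of -0.57.

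The rest of the 10 differed by transmitter by less than 1.5-fold in both libraries. Celf4 leaned to inhibitory neurons, with 766 CPM in excitatory and 876 CPM in inhibitory core neurons (ratio 0.875), and 660 and 838 CPM in the distal region (0.788, 0.699 to 0.887). Elavl3 leaned the same way, at 0.900 in the core and 0.818 in the distal region (0.678 to 0.984). Celf2 leaned to excitatory neurons, with 1036 CPM in excitatory and 936 CPM in inhibitory core neurons (1.11), and 1549 and 1255 CPM in the distal region (1.23, 1.13 to 1.34). Nova2 had ratios of 1.14 in the core and 1.37 in the distal region (0.993 to 1.89), whose interval includes 1. Rbfox1 had 7816 CPM in excitatory and 7838.5 CPM in inhibitory distal neurons, a ratio of 0.997. Distal ratios of Rbfox2 (1.11), Rbfox3 (1.09), Nova1 (1.05) and Elavl4 (0.880) lay within the same narrow range.

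**Figure D3:**
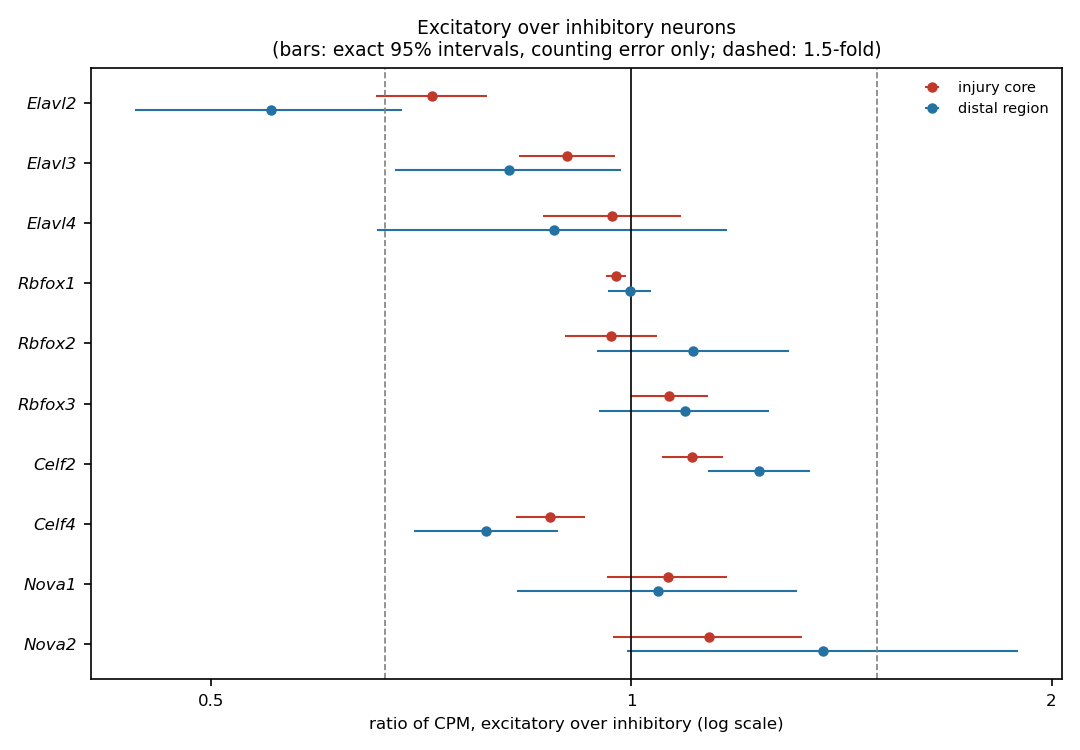
Ratio of the level in excitatory to that in inhibitory neurons for each of the 10 genes, on a log axis, in the injury core and the distal region, with 95% intervals for counting error. Elavl2 lies lowest in both libraries, at 0.720 in the core and 0.552 in the distal region, and Celf2 and Nova2 lie highest in the distal region.

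Within the inhibitory neurons, those with a UMI of Slc6a5, the glycine transporter of glycinergic neurons, were set against the others. In the distal region (91 glycinergic and 170 other nuclei) Nova1 was higher, with 243 CPM in glycinergic and 157 CPM in other inhibitory neurons, a ratio of 1.55 (1.154 to 2.09). Celf4 was lower, with 640.2 and 967.5 CPM, a ratio of 0.662 (0.568 to 0.769). Of 3544 features 4.83% were called higher and 7.42% lower. In the core (1107 and 1099 nuclei) Nova1 had a ratio of 1.32 and Celf4 0.696, and 0 of the 10 were called, beside 2.59% higher and 3.29% lower of 9137 features.

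Over the neuron clusters the Elavl2 difference did not follow transmitter alone. Among distal clusters whose summed markers were excitatory, Elavl2 stood at 65.3 CPM (48.6 to 85.8) in cluster 6, 72.0 CPM in cluster 7 and 72.9 CPM in cluster 10, close to the 58.4 CPM of oligodendrocytes. Another excitatory cluster, 16, led by Maf and Dpp10, had 326 CPM (256 to 408), near the 332 CPM (288 to 381) of the inhibitory cluster 5. Among inhibitory clusters, cluster 20 had 245 CPM and cluster 15 had 103 CPM, from 22 UMIs, and cluster 15 is one of those with Col6a1 among its leading genes. Excitatory clusters thus held both low and high levels of Elavl2. With whole clusters compared by their kind, the distal log2 ratio of excitatory over inhibitory was -1.55 for Elavl2 and -1.16 for Elavl4, which passes the limit for both.

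Elavl4 (HuD) was low in the same 3 excitatory clusters, with 52.5 CPM in cluster 6, 48.0 CPM in cluster 7 and 38.2 CPM in cluster 10, against 103 CPM in the inhibitory cluster 5. Excitatory cluster 12 had 173 CPM, above the inhibitory clusters 5, 15 (103 CPM) and 20 (125 CPM). Elavl4 was lowest in cluster 18, with 16.1 CPM from 2 UMIs (1.95 to 58.1). Celf2 was highest there, at 2559 CPM in cluster 18 and 2438 CPM in cluster 10. Over the clusters of at least 50 nuclei Elavl4 and Celf2 had a Pearson r of -0.859 in the core (11 clusters) and -0.714 in the distal region (8 clusters). These clusters share a library and its free RNA, so the values are a description.

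Rbfox genes varied in another direction. Rbfox1 was highest in distal cluster 7, at 11149 CPM, with Rbfox3 also highest there, at 737 CPM. Both were lowest in cluster 20, with 2889.7 CPM of Rbfox1 and 180 CPM of Rbfox3 (126 to 249). Cluster 20 was led by Pkd1l2 and by Pkd2l1, a channel of neurons that contact the cerebrospinal fluid, and its markers of such neurons summed to 3517 CPM in the core and 7119 CPM in the distal region, against at most 45.1 CPM in any other neuron cluster. An Rbfox3 UMI was found in 47.6% of its 42 core nuclei and 22.6% of its 62 distal nuclei, at median depths of 1544 and 2109 UMIs, and in 30.7% of core and 7.83% of distal oligodendrocytes. The same cluster had the highest Celf4 level of the distal clusters, 1214.9 CPM. Core nuclei of cluster 20 held 606 CPM of Rbfox3 and 6708 CPM of Rbfox1, a ratio of core to distal of 3.37 (2.25 to 5.14) for Rbfox3. Rbfox2 lay between 315 and 479 CPM over the distal clusters.

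The Nova genes showed 1 clear contrast. Nova1 stood at 88.3 CPM (68.7 to 112) in distal cluster 6 and 269 CPM (229 to 315) in distal cluster 7, both excitatory by their distal markers. In the core it stood at 140.0 and 269 CPM. Nova2 ranged between 61.0 and 133 CPM over the distal clusters.

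**Figure D4:**
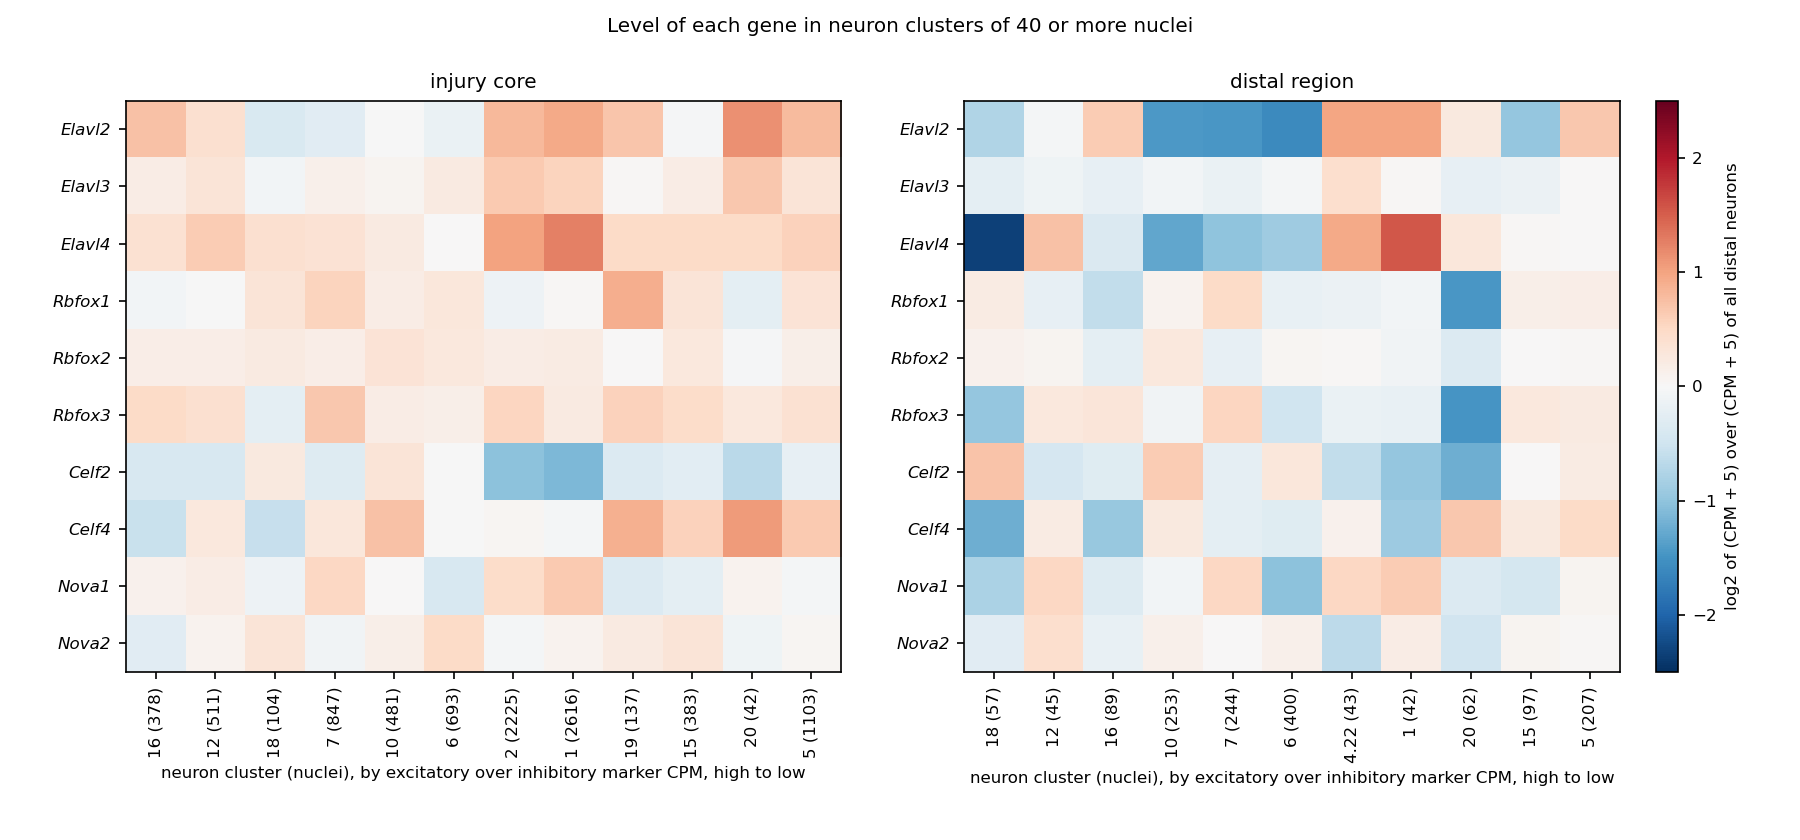
Log2 difference of the level of each gene (CPM plus 5) in each neuron cluster of at least 40 nuclei from its level over all distal neurons, with clusters ordered from the most excitatory to the most inhibitory marker balance in each library. Elavl2 and Elavl4 are low in distal clusters 6, 7 and 10 (Elavl2 at 65.3 to 72.9 CPM), and Rbfox1 and Rbfox3 are low in distal cluster 20.

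Between the libraries, 3 of the 10 genes passed the limit in neurons. The comparison used 8648 core and 1483 distal neurons, without clusters 12 and 15, in which Col6a1, a fibroblast marker, was among the 10 leading genes. The distal blood or mitochondrial cluster of 929 nuclei was not among them. Its 12 neuron markers summed to 5668 CPM, and it held more Elavl2 and Elavl4 than the distal neurons did. Elavl2 was higher in the core, with 347 CPM in core and 213 CPM in distal neurons, a ratio of 1.63 (1.52 to 1.75). Elavl4 was higher too, with 198 and 99.0 CPM, a ratio of 1.998 (1.8 to 2.22). Celf2 was lower, with 992 CPM in core and 1576 CPM in distal neurons, a ratio of 0.629 (0.612 to 0.648). Over all 9666 features 9.22% were called higher and 13.2% lower. Ratios of the other 7 were 1.36 for Elavl3, 1.35 for Nova1, 1.31 for Rbfox3, 1.14 for Rbfox2, 1.13 for Celf4, 1.09 for Rbfox1 and 1.07 for Nova2.

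All 3 calls rested on how neurons were drawn. None of the 10 genes was called under 4 of the alternatives (a minimum of 500 in place of 300 genes per barcode, clustering resolutions of 0.5 and 2.0, and nuclei classed one by one). Without clusters 1 and 2 only Elavl4 was called (log2 ratio 0.62). Over all alternatives the log2 ratio ran between 0.15 and 0.71 for Elavl2, 0.21 and 1.02 for Elavl4, and -0.67 and -0.22 for Celf2, so the directions held. Clusters 1 and 2 held 4841 core and 63 distal neurons. The 10 oligodendrocyte markers, none at 0, summed to 268 CPM in core neurons and 2097 CPM in distal neurons, and their part in these results was not tested.

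Excitatory neurons alone gave the same 3 calls, with ratios of core to distal of 1.603 for Elavl2, 1.78 for Elavl4 and 0.636 for Celf2, beside 16.3% higher and 11.2% lower of 6251 features. In inhibitory neurons only Elavl4 was called, at 1.504, beside 10.8% higher and 13.5% lower of 9400 features, and Elavl2 had a ratio of 1.19 and Celf2 of 0.755. The 10 clusters with at least 40 nuclei in both libraries, clusters 12 and 15 among them, were also compared one by one. In 10 of 10, 5 genes had a ratio above 1: Elavl3, Rbfox1, Rbfox2, Rbfox3 and Celf4. Any ratio above 1 counts here, and several intervals include 1, such as that of Celf4 in cluster 12 (1.04, 0.867 to 1.26). The share of all features above 1 in every cluster is not given, and clusters of 1 library are not replicates. Elavl2 was higher in 9 of 10, with ratios of 2.84, 2.35 and 2.81 in the excitatory clusters 6, 7 and 10, against 1.09 in the inhibitory cluster 5 and 1.07 in the excitatory cluster 16. Those first 3 clusters had the lowest distal levels, and their core levels (185, 169 and 205 CPM) stayed below the 359 CPM of background-like core nuclei. They are called excitatory by their distal markers. In the core their inhibitory markers summed higher than their excitatory ones: 99.2 and 78.3 CPM in cluster 6, 71.7 and 68.4 CPM in cluster 7, 77.1 and 65.8 CPM in cluster 10. Elavl4 was higher in 8 of 10, and its largest ratio, 8.44 in cluster 18 (2.10 to 73.7), rests on 2 distal UMIs. Celf2 was higher in 2 of 10, with ratios between 0.726 and 1.46. Nova1 was higher in 7 and Nova2 in 6.

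**Figure D5:**
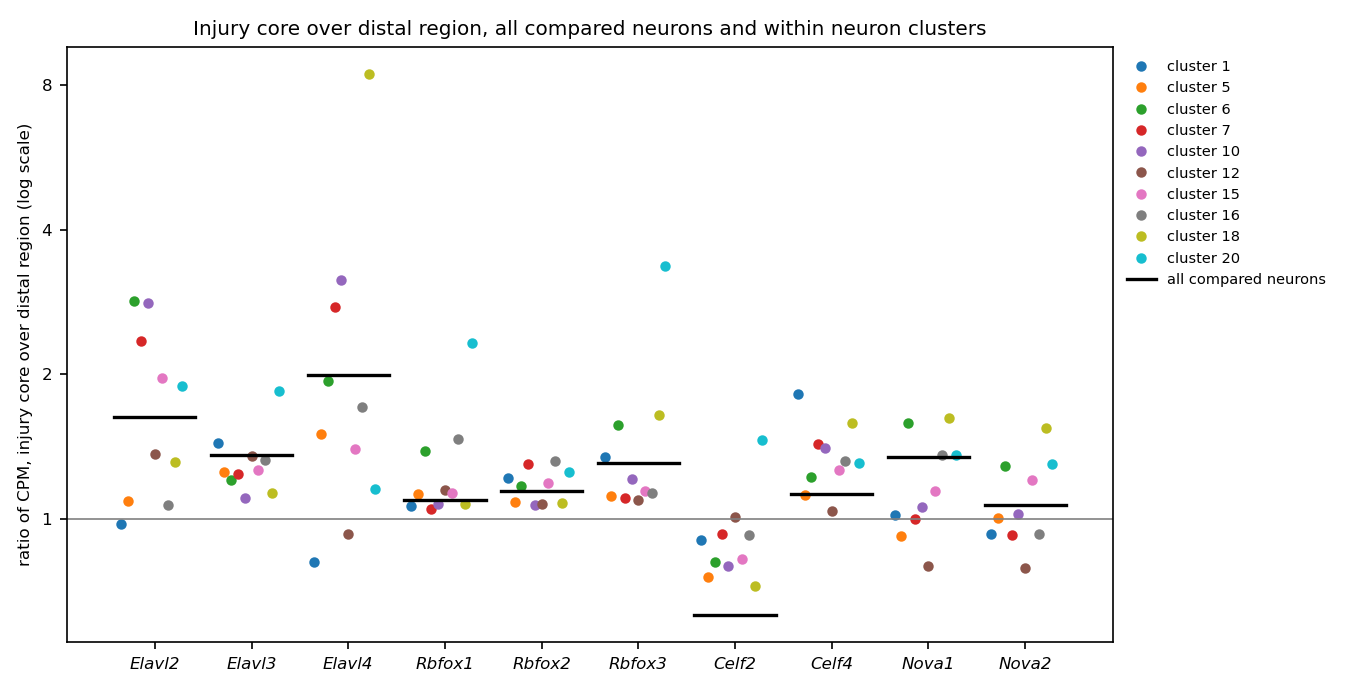
Ratio of the level in injury core to that in distal region for each of the 10 genes, on a log axis, with 1 point for each of 10 neuron clusters and a black line for all compared neurons together. Over all compared neurons Elavl2 and Elavl4 lie highest and Celf2 lowest. The points of Elavl3, Rbfox1, Rbfox2, Rbfox3 and Celf4 lie above 1 in all 10 clusters, some with intervals (not drawn) that include 1.

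Other RNA-binding protein genes were followed in 3 lists. Of the 5 remaining genes of the Elavl and Celf families, 3 were higher and 0 lower in distal neurons than in oligodendrocytes: Celf6 (ratio 10.9), Celf3 (5.97) and Celf5 (5.43). Of 17 tested neuronal splicing and translation regulators, 6 were higher and 2 lower. The highest were Srrm3 (7.21) and Srrm4 (5.39), which switch on neuronal microexons, and Khdrbs2 (5.35), and the lower ones were Mbnl2 (0.309) and Cpeb2 (0.370). Of 17 tested progenitor, glial or broad genes, 3 were higher, Msi1 (3.79), Rbms1 (3.29) and Ptbp1 (1.58), and 4 were lower, among them Qk (0.171), the splicing regulator of oligodendrocytes, Mbnl1 (0.563) and Igf2bp2 (0.571). Beside these counts stand 27.5% of all features called higher and 27% called lower. The lists' median log2 ratios were 2.44, -0.02 and -0.17, against -0.11 for all features.

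By transmitter, Celf5 was higher (1.86) and Celf3 lower (0.579) in excitatory than in inhibitory distal neurons, of 4 family genes tested. Srrm4 (0.477), of 17 regulators, and Msi2 (0.522), of 13 broad genes, were lower. Of all features 5.94% were called higher and 8.35% lower. In the core 0 genes of the 3 lists were called, beside 2.51% and 3.03% of all features. Between libraries, Celf3 (0.537) and Celf5 (0.661) were lower in core neurons, Rbms3 was higher (1.51), Ptbp3 was lower (0.626) and Qk was lower (0.225, with 159 CPM in core and 704 CPM in distal neurons), beside 9.22% of all features called higher and 13.2% lower. The oligodendrocyte markers given above were lower in core neurons too, and their part in the Qk ratio and in the others was not tested.

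For each of the 10 genes, the 3 features with the most similar pattern were found over 13 combinations of class and library, by Pearson r of log2(CPM + 5) among 11804 candidates. Rbfox1 had the closest match, Nrg3 (r 0.990), followed by Sgcz (0.983) and Unc79 (0.982). Celf4 was closest to Bcl11a (0.985), Nipal2 and Clstn2, and Rbfox3 to Chrm2 (0.972), Bcl11a (0.971) and Hs3st5, so Bcl11a was among the nearest for both. Elavl2 was closest to Snap25 (0.966), a synaptic gene of the neuron list, Chd5 and Ttll11. Rbfox2 was closest to Rbms1 (0.975), Cgnl1 and Sept11, and Elavl3 to Zfp704 (0.950), Ppp2r2c and Ralgps1. Elavl4 (Madd, 0.940, then Lrfn2 and Cntn4), Nova1 (Trit1, 0.919, then Igsf21 and Cntfr), Celf2 (Tut4, 0.912, then Epha3 and Cemip) and Nova2 (Ica1, 0.898, then Chrna7 and Samd12) had looser matches. All combinations share 2 libraries and their free RNA.

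The 10 genes were also read in distal astrocytes with a Neurod1 UMI. There were 26 such nuclei, with a median of 2543.5 UMIs, against 604 without, with a median of 1440.5 UMIs. Rbfox3 had 15 UMIs in the positive nuclei, a ratio of 1.27 (0.693 to 2.17) to the negative ones, and the intervals of all 10 genes included 1. An increase of up to 2.17-fold in Rbfox3 lies within its interval. The narrowest interval was that of Rbfox1, at 0.891 (0.762 to 1.03). Neurod1 UMIs were not separable into transgene and endogenous transcript.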

How the data were processed

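The deposited tables give, for each barcode and feature, a raw count of UMIs. The file headers name Cell Ranger 7.1.0. The submitters' processing notes also name Seurat, GRCh38 and mm10 without a role. The annotation, the strand setting and the use of intronic reads are not given in the sources used here. The design text names 3 mice per region, and each region is 1 library.

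Kept were barcodes in which 300 or more genes were found and mitochondrial UMIs made up no more than 5% (16360 core, 7443 distal). Counts were scaled to 10000 and log-transformed. The 2000 most variable genes, without 15 Elavl, Rbfox, Celf and Nova genes, Neurod1, mitochondrial and sex-linked genes, gave 40 components and 15 neighbours, clustered at resolution 1 into 23 clusters (scanpy 1.11.5, leidenalg 0.10.2, numpy 2.4.6, scipy 1.17.1, scikit-learn 1.9.0, pandas 2.3.3, Python 3.11.15). Scrublet called 0 doublets in both libraries, with thresholds of 0.686 and 0.581 above the highest scores of 0.556 and 0.354, so it was taken not to have worked and doublets were left in.

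Clusters were named within each library from marker lists. Neuron-like ones were those with at least 3 neuron markers that were left after the other names were given. The score limits were chosen after seeing the data, and mixed clusters were split at resolution 2. Kept out of all classes as mixed, unnamed or blood or mitochondrial were 366, 15 and 107 core nuclei, and 919, 80 and 929 distal nuclei, and 88 distal nuclei were hepatocyte-like. The 10 genes, the other lists and the comparisons were chosen with earlier results of these data known. UMIs were summed per class and library; levels carry exact Poisson, shares exact Clopper-Pearson and ratios exact conditional 95% intervals, all for counting error only. The ratio routine was tested on simulated data. Named were all 10 genes, at most 3 other RNA-binding protein genes per direction, list and comparison, those with the largest ratios past 1.5-fold, and the 3 features most like each of the 10 genes. Cluster 20, its leading genes and single cluster values were chosen after the values were seen. Gene spans come from GENCODE M21 and upstream sequences from RefSeq, which matched 8 of the 10 genes. Long genes collect intronic UMIs where introns are counted, and genes overlapping Rbfox1, Rbfox2, Rbfox3, Celf2 and Celf4 can share UMIs with them.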

Additional observations from a re-analysis of the deposited data

How the results depend on the processing

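No paired analysis was possible because each region has 1 library. For the same reason no replicate could be left out. Counts of the 10 genes called changed as follows. The shares of all features called under each alternative are not given, so these counts have no background beside them. A smaller fold limit can only add calls, among all features as well as among the 10 genes. For excitatory over inhibitory neurons in the core, 0 were called, and 1 was called at the smaller fold limit tried and 1 without clusters 1 and 2. In the distal region 1 was called, against 0 at resolution 0.5, 3 at the smaller fold limit tried and 2 with whole clusters compared. For core over distal neurons 3 were called, against 0 with a minimum of 500 genes per barcode, 0 at resolutions 0.5 and 2.0 and 0 with nuclei classed one by one. At the smaller fold limit tried 6 were called, and 1 without clusters 1 and 2. For neurons over oligodendrocytes in the distal region 9 were called, and 9 or 10 under the alternatives, though not the same genes: at the same fold limit Elavl3 kept its call in 6 of 9 alternatives and Nova1 gained one in 4 of 9. Of 420 single-gene ratios under the alternatives that can move a ratio, 319 stayed within the counting interval of the reported value, 43 moved further up and 58 further down. In 31 of the 420 the sign changed, all of them ratios that were not called, and no called ratio turned round under any alternative run. The settings without clusters 1 and 2, and with clusters 12 and 15, were chosen after seeing the data. The distal transmitter comparison rests on 207 excitatory and 261 inhibitory nuclei, with 114 and 317 UMIs of Elavl2, and the distal glycinergic one on 91 and 170 nuclei.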

Other observations

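A distal cluster of 929 nuclei was kept out of the classes because haemoglobin genes were among its 10 leading genes. The neurofilament genes Nefl, Nefh and Nefm and the synaptic gene Syt2 were among them too. Its 12 neuron markers summed to 5668 CPM, against 6251 CPM in distal neurons, so it can hold neuronal nuclei that the neuron class left out. It held more of several of the 10 genes than the distal neurons did, with 446 CPM of Elavl2 against 207 CPM, 252 CPM of Elavl4 against 101.8 CPM and 351 CPM of Nova1 against 186 CPM in neurons. Its nuclei had a median of 1390 UMIs.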
